A study of Mus musculus with 2 samples.

Results

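Sweet, umami and bitter compounds are detected by type II taste cells, and the 8 genes described here (*Gnat3*, *Gna14*, *Gnb3*, *Gng13*, *Rgs21*, *Plcb2*, *Itpr3* and *Trpm5*) code for the signalling proteins that these cells use behind their receptors. They were taken by gene symbol from an mRNA-Seq table of 18498 rows, and 7 of the 8 had a row. *Rgs21* had none. The table compares the circumvallate papillae (CvP), the taste papilla at the back of the mouse tongue, with tongue epithelium that holds no papillae (Epi). Each tissue was 1 poly(A) library, made from RNA that was pooled over at least 20 mice. The mice were C57BL/6J, taken to be males of 12 to 30 weeks on normal chow, and the labels give neither a mutation nor a treatment. The study states sex and age for its RT-PCR and chow for its animal housing, not in its sequencing methods. Because RNA was pooled and sequenced once, there was no replicate and no test. Every difference is a difference between these 2 libraries, and every interval covers counting error only.

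In the textbook cascade, a tastant binds a G protein-coupled receptor of the Tas1r or Tas2r family, and a heterotrimeric G protein splits into its α subunit and its βγ dimer. The βγ dimer activates phospholipase Cβ2, which makes the messenger IP3, and IP3 opens its receptor on the calcium store. Calcium then opens the cation channel TRPM5, the cell depolarizes, and ATP leaves through CALHM channels to excite the nerve. RGS proteins end the signal by speeding GTP hydrolysis on the α subunit.

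The promoters of the cascade genes are shown first. *Itpr3*, the member whose 2 levels lay closest together, differed from most of the others in its start region. Whether the start region bears on the levels was not tested. RefSeq promoter windows (GRCm38.p6, 250 bases before to 50 bases after the transcription start) were found for 7 of the 8 genes, with 2 starts for *Gng13*. *Gnb3* had no entry. The following windows read 5′ to 3′ along the gene, with each CG dinucleotide in capitals. The first 3 belong to genes with an Epi RPKM of at most 0.12, and the last belongs to *Itpr3*.
Gnat3, chr5:17962320-17962619, plus strand: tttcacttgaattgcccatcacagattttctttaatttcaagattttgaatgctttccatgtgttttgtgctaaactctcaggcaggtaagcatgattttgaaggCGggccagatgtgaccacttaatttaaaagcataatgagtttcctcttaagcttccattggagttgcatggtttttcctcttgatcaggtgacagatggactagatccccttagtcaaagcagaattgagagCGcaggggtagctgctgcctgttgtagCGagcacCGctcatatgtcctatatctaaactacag
Trpm5, chr7:143094593-143094892, minus strand: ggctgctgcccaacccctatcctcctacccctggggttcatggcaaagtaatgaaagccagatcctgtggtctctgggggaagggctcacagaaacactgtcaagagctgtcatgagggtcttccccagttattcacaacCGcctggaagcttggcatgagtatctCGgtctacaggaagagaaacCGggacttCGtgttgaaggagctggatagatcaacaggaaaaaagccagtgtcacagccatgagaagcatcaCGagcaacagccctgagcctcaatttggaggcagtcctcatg
Plcb2, chr2:118728389-118728688, minus strand: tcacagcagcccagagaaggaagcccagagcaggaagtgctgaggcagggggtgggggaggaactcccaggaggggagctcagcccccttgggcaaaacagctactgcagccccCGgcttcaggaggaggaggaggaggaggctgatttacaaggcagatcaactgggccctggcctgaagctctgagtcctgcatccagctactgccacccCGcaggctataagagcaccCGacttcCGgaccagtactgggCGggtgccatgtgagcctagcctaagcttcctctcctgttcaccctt
Itpr3, chr17:27057054-27057353, plus strand: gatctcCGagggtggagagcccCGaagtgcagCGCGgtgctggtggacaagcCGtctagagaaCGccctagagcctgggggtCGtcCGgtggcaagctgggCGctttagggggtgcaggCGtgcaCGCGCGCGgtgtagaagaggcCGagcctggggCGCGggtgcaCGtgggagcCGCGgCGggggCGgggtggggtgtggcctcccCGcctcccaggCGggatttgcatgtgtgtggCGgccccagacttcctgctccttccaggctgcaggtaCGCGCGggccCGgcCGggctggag

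The windows of *Gnat3*, *Trpm5* and *Plcb2* held 4, 5 and 5 CG dinucleotides and that of *Itpr3* held 30. Scaled to base composition, the observed/expected CpG ratio was 0.30 for *Gnat3*, 0.24 for *Trpm5*, 0.18 for *Plcb2*, 0.28 for *Gna14* and 0.24 for *Rgs21*, all below the median of 0.38 over 32851 promoters. It was 0.80 for *Itpr3*, above 79.3% of all promoters. The 2 annotated starts of *Gng13* lay on either side of the median, at 0.21 and 0.88, and the files do not say which start was used in these tissues. The octamer ATGCAAAT, a motif that POU-domain factors bind, was the one motif searched, on both strands. It was present in 1.74% of all promoter windows and in those of *Itpr3* and *Rgs21*, where it is shown in capitals.
Itpr3, starting 27 bases before the start site, as its reverse complement: tcccaggcgggATTTGCATgtgtgtggcgg
Rgs21, starting 200 bases before the start site: catatgaagccATGCAAATacgaccttcag
These are matches of letters, and no binding was measured.

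**Figure D1:**
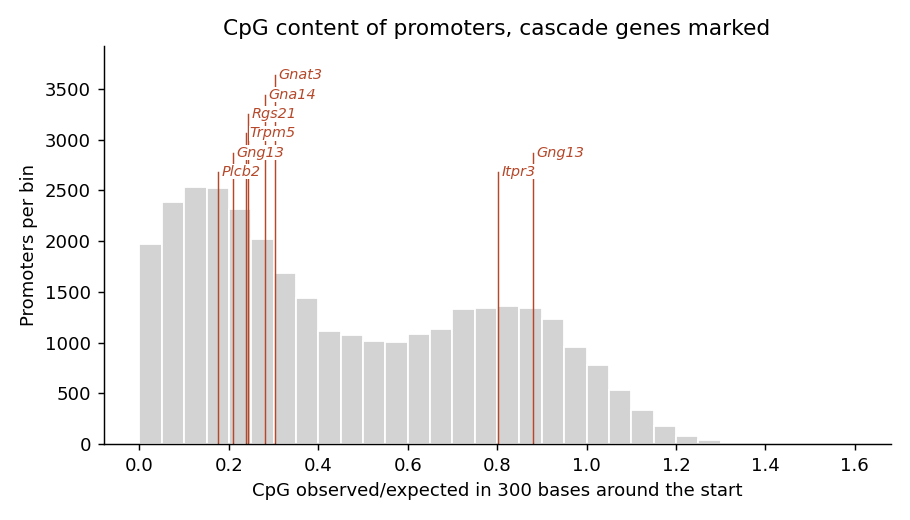
Histogram of the observed/expected CpG ratio (x axis, no unit) in 300-base RefSeq promoter windows, with the number of promoters per bin on the y axis and a vertical line for each start of a cascade gene. *Plcb2*, 1 start of *Gng13*, *Trpm5*, *Rgs21*, *Gna14* and *Gnat3* lie between 0.18 and 0.30, and *Itpr3* (0.80) and the other start of *Gng13* (0.88) lie in the upper mode.

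Values are RPKM, the authors' read density scaled to exon length and mapped reads. The depth was read from the smallest step between values in 163 rows of 0.1 kb, and came to about 28375281 mapped reads for the CvP and 27908511 for the Epi. The CvP library carried the markers of taste buds. *Krt19* and *Krt18*, keratins of taste bud cells, stood at 198 and 161 RPKM in the CvP and 0.91 and 0.62 in the Epi, and all 4 general taste bud markers met the criteria used below. Over the 10363 rows with an RPKM of at least 1 in both libraries, the CvP/Epi ratio had a median of 1.31 (0.39 on the log2 scale). In bulk tissue, fewer cells of a type and less RNA per cell cannot be told apart.

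Of the 7 cascade genes with a row, 6 had an RPKM of 17.1 or more in the CvP and of 0.26 or less in the Epi. The study selected genes with more than 10 RPKM in the CvP and more than a 3-fold CvP/Epi ratio. Both criteria were met by *Gnat3*, *Gnb3*, *Gng13*, *Plcb2*, *Trpm5* and *Gna14*, against 2.35% of all rows. More than 10 RPKM with a ratio over 100 was reached by 5 of the 7, all of these except *Gna14*, against 0.411% of all rows. *Itpr3* missed the ratio. None of the 7 was higher in the Epi. All 7 passed a filter of RPKM 1 in either library, and their median log2 ratio, with a pseudocount of 0.1, was 8.43, beside 0.50 over the 12549 rows that passed the same filter. The direction of the members was known when they were chosen, so the counts describe them.

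**Figure D2:**
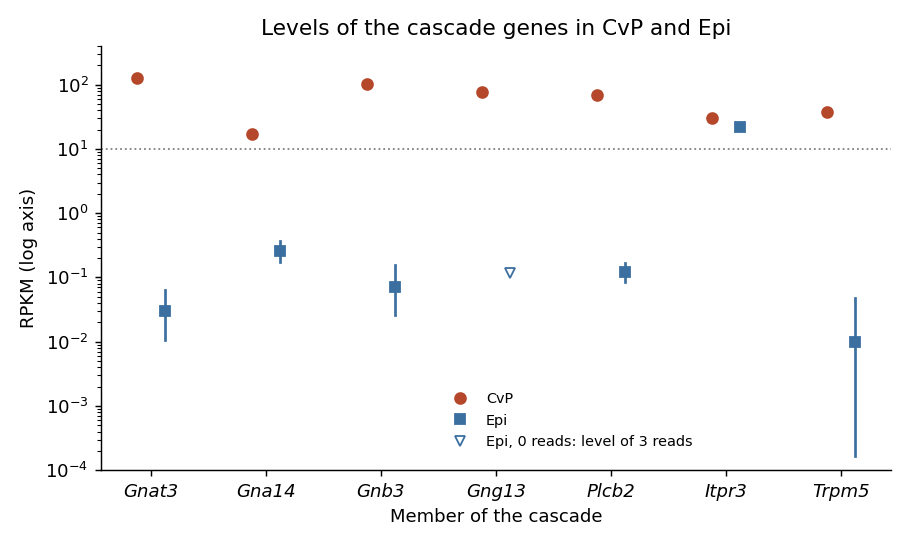
RPKM on a log axis for the 7 cascade genes with a row, with circles for the CvP library, squares for the Epi library and bars for 95% exact Poisson intervals of the reads (hidden behind the symbols where narrow). The open triangle is the level of 3 reads for *Gng13*, which had 0 Epi reads, and the dotted line marks RPKM 10. CvP levels span 17.1 to 127, and all Epi levels except that of *Itpr3* (21.9) lie at or below 0.26.

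The α subunits come first in the cascade. *Gnat3* codes for gustducin, the α subunit named for its place in taste cells, and is located at chr5:17468388-17525486 (NCBI37/mm9, plus strand). The CvP library had 127 RPKM, about 34149 reads, and the Epi library 0.03, 7 to 9 reads. It had the highest CvP level of the members, number 334 of all rows, and a ratio of 4237 (95% interval 1966 to 11935).

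*Gna14*, an α subunit of the Gq class that couples receptors to phospholipase Cβ, is located at chr19:16510157-16685308 (plus strand). It had the lowest CvP level of the members, 17.1 RPKM or about 1967 reads, and 0.26 RPKM in the Epi, 29 reads. The ratio was 65.8 (95% interval 46.3 to 99.9), and its interval lay below those of *Gnat3*, *Gnb3*, *Plcb2* and *Trpm5*. The CvP level of *Gnat3* was 7.42-fold that of *Gna14*.

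The β subunit gene *Gnb3* is located at chr6:124784258-124790293 (minus strand). It was found at 104 RPKM in the CvP library (about 8936 reads) and at 0.07 RPKM in the Epi library (6 reads), with a ratio of 1487 (673 to 3993). *Gng13*, the γ subunit that pairs with it in taste cells, is located at chr17:25854117-25856047 (plus strand). Its CvP level was 77.4 RPKM (about 1985 reads). No read was found in the Epi, which allows up to 0.12 RPKM at 3 reads, so *Gng13* was at least 651-fold higher in the CvP against this floor (the exact 95% lower limit of the ratio was 529). The RNA levels of the 3 subunits of the gustducin trimer were 127, 104 and 77.4 RPKM for α, β and γ. They rest on the listed gene lengths, and with annotated transcript lengths they would be 934, 171 and 97.3 RPKM. Protein was not measured.

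*Plcb2*, the phospholipase that makes IP3, is located at chr2:118533253-118554174 (minus strand). It had 70.0 RPKM in the CvP, about 24345 reads, and 0.12 in the Epi, 40 to 42 reads. This was the best counted of the low Epi levels, and the ratio of 583 had the interval 422 to 838. *Trpm5*, the calcium-activated cation channel at the end of the cascade, is located at chr7:150257434-150280547 (minus strand). The CvP level was 37.8 RPKM (about 5753 reads) and the Epi level 0.01 RPKM, which is 1 or 2 reads. Its ratio of 3780.0 was therefore uncertain, with an interval from 783 to 223532.

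*Itpr3*, the IP3 receptor of type II cells, is located at chr17:27194249-27259168 (plus strand). It was the exception, with 30.1 RPKM in the CvP (about 11271 reads) and 21.9 RPKM in the Epi (8068 to 8070.0 reads), a ratio of 1.37 (95% interval 1.33 to 1.41). Divided by the median ratio of all rows the value was 1.05, with counting limits of 1.02 and 1.08. In the Epi *Itpr3* made up 97.8% of the summed RPKM of the 7 members, and in the CvP 6.49%. Its CvP level was within the range of the other members, between *Trpm5* and *Gna14*.

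**Figure D3:**
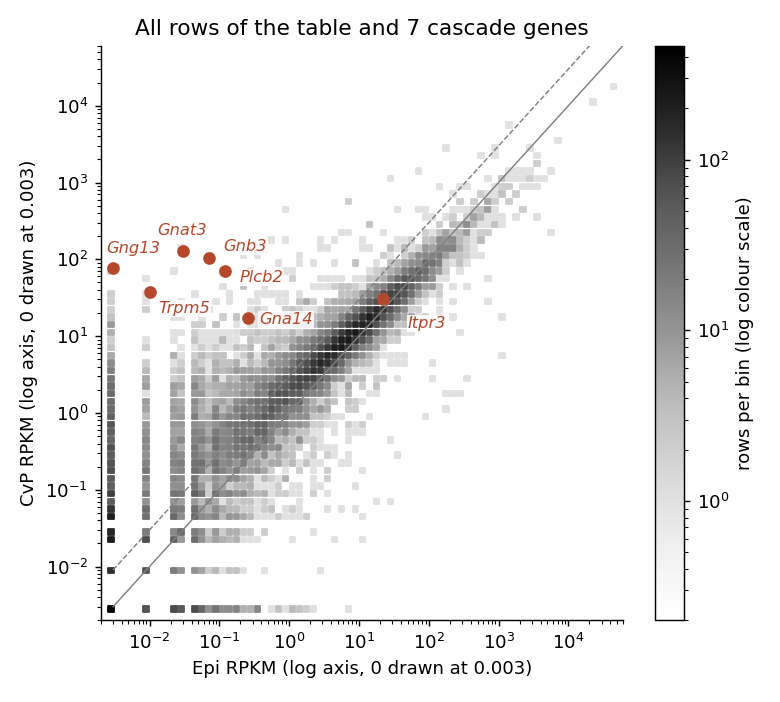
CvP RPKM against Epi RPKM on log axes for all 18498 rows, drawn as counts per bin in grey with values of 0 drawn at the lower and left edges. The solid line is equal RPKM, the dashed line a ratio of 3, and the labelled circles are the 7 cascade genes. *Itpr3* lies in the main cloud near the line of equality, and the other 6 lie far above the dashed line.

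In the order of CvP levels, *Gnat3*, *Gnb3*, *Gng13*, *Plcb2*, *Trpm5*, *Itpr3* and *Gna14*, no counting interval overlapped that of its neighbour. The closest pair was *Gng13* and *Plcb2*, with a quotient of 1.11. In the Epi the order was *Itpr3*, *Gna14*, *Plcb2*, *Gnb3*, *Gnat3*, *Trpm5* and *Gng13*. There the intervals of *Plcb2* and *Gnb3*, of *Gnb3* and *Gnat3* and of *Gnat3* and *Trpm5* overlapped, and the floor of *Gng13*, 0.12 RPKM, was above the lower limits of these 4. The ratios of *Gnat3*, *Trpm5* and *Gnb3* also had overlapping intervals and cannot be ranked, whereas the interval of *Gnat3* lay above that of *Plcb2*. With reads estimated from the annotated transcript length these intervals overlapped, since the lower limit of *Gnat3* was 633 and the upper limit of *Plcb2* 1099.7.

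The level order depends on length. The listed gene length was 9.468 kb for *Gnat3*, 7.35 times its longest annotated coding transcript of 1.289 kb, and 2.38 times for *Plcb2*, 1.64 times for *Gnb3*, and at most 1.47 times for the other 4. If all reads lay in the annotated transcript, the CvP level would be 934 RPKM for *Gnat3*, 171 for *Gnb3*, 167 for *Plcb2*, 97.3 for *Gng13*, 49.2 for *Trpm5*, 44.2 for *Itpr3* and 20.5 for *Gna14*, which exchanges *Gng13* and *Plcb2*. Length divides out of the CvP/Epi ratios but not out of their counting intervals.

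*Rgs21*, an RGS gene of taste cells, is annotated in GENCODE M1 at chr1:146366820-146388442 (NCBI37/mm9, minus strand). A transcribed region to which the table gives no gene covers chr1:146362610-146392596 and holds all 3 annotated *Rgs21* exons. The region had 18.0 RPKM in the CvP (about 2123 reads) and 0.02 RPKM in the Epi (2 reads), a ratio of 902 (95% interval 289 to 8627). A further region, 26043 bases upstream of the *Rgs21* start (chr1:146414485-146414838), had 25.9 RPKM in the CvP (about 259 reads) and no Epi read. It was 84.9-fold higher in the CvP against a floor of 3 Epi reads (exact 95% lower limit 68.6). Both regions met the criteria. Another region, 148739 bases upstream (chr1:146537181-146538378), had 1.83 RPKM in the CvP (about 62 reads) and no Epi read, and did not meet them. The 3 regions were matched by coordinates after their values were seen, they have no strand, and they are not counted among the 7 members. Of 20 other RGS genes with a row, 14 had a ratio above 3, against 25.5% of all rows. The median log2 ratio was 3.89 over the 13 past the filter, beside 0.50 over all rows past it. Genes could pass the filter through their CvP level alone, so this median is drawn toward genes high in the CvP. Both criteria were met by 1 of the 20, *Rgs2* (named after its values were seen), at 10.05 RPKM in the CvP but 0.28 in the Epi. *Rgs12* had the highest level of these 20 in both libraries, 12.5 RPKM (CvP) and 7.51 RPKM (Epi).

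Each cascade gene was then set against its gene family, since RPKM is given per length. In the CvP, *Gnat3*, *Gnb3*, *Gng13*, *Plcb2*, *Itpr3* and *Trpm5* were each the highest member of their family. In the Epi only *Itpr3* was. By estimated reads, which are not scaled to length, *Gng13* and *Gnb3* were number 3 of their families in the CvP, with 16.6% and 23.5% of the reads, and the other 4 still led. Of these genes, *Plcb2* held 67.6% of the summed RPKM of the 4 phospholipase Cβ genes in the CvP but 0.43% in the Epi, where *Plcb3* led with 27.7 RPKM. *Trpm5* held 55.9% of the TRPM channel family in the CvP but 0.072% in the Epi, where *Trpm7* led with 6.78 RPKM. *Gng13* held 41.4% of the 11 γ subunits with a row in the CvP but 0% in the Epi (0 of 11457 reads of the family, which allows a share of up to 0.026% of reads), where *Gng5* led with 65.9 RPKM.

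*Gnb3* accounted for 35.3% of the β subunits in the CvP but 0.046% in the Epi, where *Gnb2* led with 88.5 RPKM. *Gnb2* itself was at 100.05 RPKM in the CvP, so in the papilla *Gnb3* was level with a β subunit that both libraries contained. *Gnat3* took 31.4% of the summed RPKM of 16 α subunits in the CvP but 0.013% in the Epi, where *Gnai3* led with 111 RPKM. *Gna14* held 4.23% and 0.11% and was number 6 of the α subunits in the CvP. *Itpr3* held 75.2% of the 3 IP3 receptors in the CvP library and 74.98% in the Epi library.

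Apart from the IP3 receptors, the summed families differed less than their cascade genes, and the sums rest mostly on the abundant members. Without the member, the summed CvP/Epi ratio was 1.22 for the α subunits other than *Gnat3*, 1.27 for the β subunits, 0.884 for the γ subunits, 1.21 for the phospholipases, 1.36 for the IP3 receptors, beside 1.37 for *Itpr3* itself, and 2.16 for the TRPM channels. *Gnb3* made up 72.2% of the excess of summed β subunit RPKM in the CvP, *Gnat3* 72.0% of that of the α subunits, *Plcb2* 92.3% of that of the phospholipases and *Trpm5* 70.3% of that of the TRPM channels. For the γ subunits the gain of *Gng13* was 123% of the net excess, because the other γ subunits summed lower in the CvP. Apart from the members, no β, γ, phospholipase Cβ, IP3 receptor or TRPM gene met both criteria, and among the α subunits *Gnaq* did. By the ratio alone, members included, 5 of 16 α, 2 of 5 β and 3 of 11 γ subunits were above 3, against 25.5% of all rows. So were 3 of 4 phospholipases, 1 of 3 IP3 receptors and 4 of 8 TRPM channels. A ratio above 3 was thus not particular to the cascade genes. Since the members are counted, these numbers do not show that the other family genes exceed the share of all rows. *Plcb4* had 6.24 RPKM (CvP) and 0.09 RPKM (Epi), a ratio of 69.3 (44.9 to 112). *Trpm6* had 2.14 and 0.01 RPKM, *Trpm2* 0.87 and 0, and *Itpr1* 2.48 and 0.38. These 4 and *Gnaq* were named after their values were seen.

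**Figure D4:**
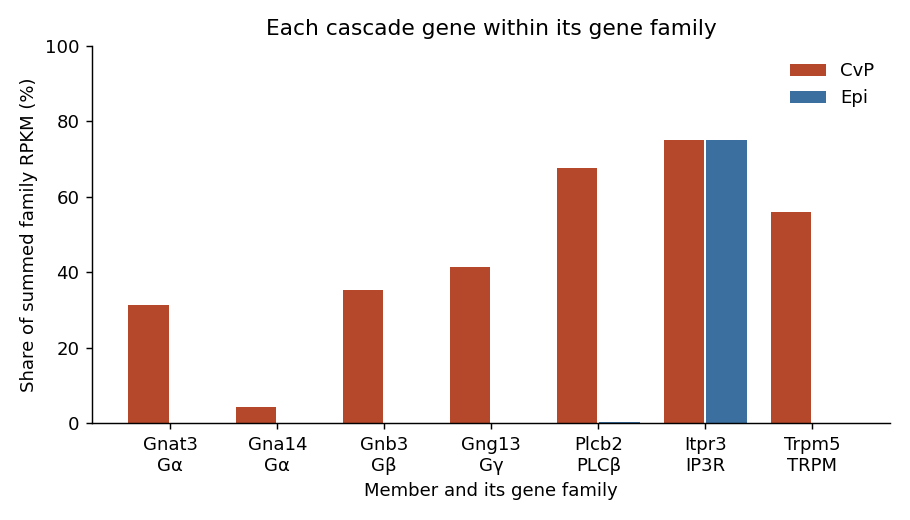
Share of each cascade gene in the summed RPKM of its gene family, in percent, in the CvP library and in the Epi library (1 library each, so no error bars). The CvP shares run from 4.23% for *Gna14* to 75.2% for *Itpr3*, and the Epi bar is visible for *Itpr3* (74.98%) and barely for *Plcb2* (0.43%).

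The rest of the pathway was described from a list of 25 genes, of which 24 had a row (*Calhm3* had none). Of these 24, 6 met both criteria and 14 had a ratio above 3, which 25.5% of all rows had, and none met the criteria with the libraries exchanged, as 0.600% of all rows did. The median log2 ratio over the 20 genes past the filter was 1.99, beside 0.50 over all rows past it. All 3 *Tas1r* genes, the sweet and umami receptor subunits, were above a ratio of 3. *Tas1r3*, the subunit common to both receptors, had 25.3 RPKM in the CvP but 0.70 in the Epi, a ratio of 36.2 (29.1 to 45.3). The sweet receptor subunit *Tas1r2* had 20.3 RPKM in the CvP but 0.01 in the Epi, 1 read, a ratio of 2029 (385 to 84883). *Tas1r1*, the umami subunit, was lower, at 3.69 and 0.16 RPKM, a ratio of 23.1 (13.5 to 46.9).

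Among genes of depolarization and transmitter release, *Kcnq1*, a potassium channel of taste cells, stood at 14.3 RPKM in the CvP with no Epi read, at least 404-fold higher. *Calhm1*, a subunit of the ATP release channel, had 3.03 RPKM and no Epi read, 44.5-fold higher against this floor (exact lower limit 35.8). The sodium channels *Scn2a1*, *Scn3a* and *Scn9a* had 0.81, 2.22 and 0.12 RPKM in the CvP and at most 0.01 in the Epi. *Panx1*, a pannexin channel, met both criteria with 17.3 and 4.24 RPKM, a ratio of 4.09 (3.76 to 4.45). *Trpm4*, the calcium-activated channel closest to *Trpm5* in function, was at 14.1 and 6.25 RPKM, a ratio of 2.25 (2.09 to 2.43). The factor *Pou2f3*, which type II cells need to form, had 19.5 RPKM in the CvP but 3.49 in the Epi, a ratio of 5.59 (4.96 to 6.30).

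Of 10 genes of calcium and lipid handling, 3 had a ratio above 3 and 1 met both criteria, against 25.5% and 2.35% of all rows. This 1 was *Atp2a3*, which codes for the calcium pump SERCA3, with 53.1 CvP and 0.70 Epi RPKM and a ratio of 75.8 (65.1 to 89.1). *Atp2a2*, the pump found in most cells, was at 65.3 and 55.3 RPKM. Of 3 scaffold and chaperone genes, 1 had a ratio above 3 and none met both criteria, beside the same shares of all rows. The names of *Atp2a3* and *Atp2a2* fall outside the rule for named genes and were chosen after their values were seen.

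**Figure D5:**
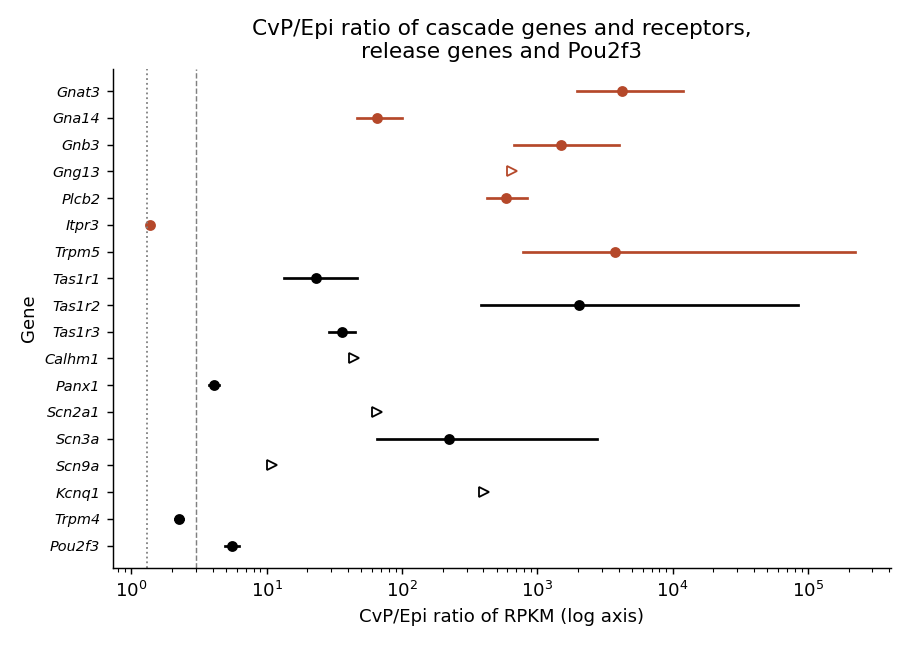
CvP/Epi ratio of RPKM on a log axis for the 7 cascade genes (red) and the receptor, release and factor genes of the pathway (black), with 95% exact counting intervals as bars. Open triangles are ratios against a floor of 3 Epi reads for genes listed at 0 in the Epi. They lie above the exact 95% lower limits of these genes. The dotted line is the median ratio of all rows (1.31) and the dashed line a ratio of 3. *Itpr3* and *Trpm4* are the 2 genes left of the dashed line.

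The table's own pathway column places 59 rows under taste transduction, 6 of them cascade genes (*Gna14* is not included). This list was added after the data were seen. Its 33 *Tas2r* bitter receptor rows all had a ratio above 3, and 30 of them were at 0 in the Epi, and their CvP RPKM ran from 0.41 to 23.5. The median of 3.69 was below the level of every cascade gene with a row, and the sum over the 33 rows was 136, beside 127 for *Gnat3* alone. Of the other 20 rows, 8 had a ratio above 3 and 2 met both criteria, against 25.5% and 2.35% of all rows.

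Most neighbouring genes on the chromosome did not share the high ratios of the cascade genes, as most rows did not. Of the 14 rows adjacent to the 7 members, 4 had a ratio above 3, against 25.5% of all rows. Both criteria, which 2.35% of all rows met, were met by 1 of the 14. This was *Kcnq1*, which starts 12611 bases beyond *Trpm5*. *Gnat3* lies between *Cd36* (0.74 RPKM in the CvP, 0.46 in the Epi) and *Gnai1* (7.65 and 15.4). *Gnb3* lies between *Cdca3* (6.30 and 2.99) and *Leprel2* (3.44 and 1.01), and *Gna14* between *E030024N20Rik* (8.06 and 6.70) and *Vps13a* (4.57 and 4.35). *Itpr3* lies between *Ggnbp1* (1.16 and 0.54) and *2900010M23Rik* (50.7 and 52.6). *Gm1337*, 3553 bases from the 3′ end of *Plcb2* on the same strand, had 6.21 RPKM in the CvP but 0.02 in the Epi, 3 reads, a ratio of 311 (95.8 to 1365). On the other side of *Plcb2* lies *5430417L22Rik* (11.4 and 10.8).

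Overlapping genes bear on *Gng13* and *Trpm5*, since the counting was not stated to use strand. Exons of *Gng13* share 399 bases with *Chtf18* on the opposite strand, and 44.3% of the 75-base windows of its transcript also occur in *Chtf18*. *Chtf18* had 2.61 RPKM in the CvP but 0.23 in the Epi, and *Lmf1*, on the other side of *Gng13*, 5.92 and 2.26. *Trpm5* shares 220 exon bases with *Tssc4* on the opposite strand, at 10.7 and 6.42 RPKM. *Itpr3* shares 233 exon bases with the non-coding gene *1700062I23Rik*. No 75-base window of the *Gnat3*, *Gna14*, *Gnb3*, *Rgs21*, *Plcb2*, *Itpr3* or *Trpm5* transcript occurred in another coding transcript.

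By levels in both libraries, the 10 genes nearest to the mean of the 7 members (distance in log2 RPKM with a pseudocount of 0.1, over 2 libraries) were *Fscn1*, *Basp1*, *Lrrc26*, *Aldh1a1*, *Pkd1l3*, *Prom1*, *Ctgf*, *Cldn7*, *Inhbb* and *Prss23*. *Fscn1*, an actin-bundling protein, was nearest, at 48.9 and 0.23 RPKM. The Epi mean is raised by *Itpr3* (21.9 RPKM), while *Plcb2*, *Gnb3*, *Gnat3*, *Trpm5* and *Gng13* were at 0.12 RPKM or less there. Genes near this mean are thus not those nearest to most single members. *Nov* was nearest to both *Gnat3* and *Gnb3*, *Trcg1* to *Gng13*, *Prom1* to *Plcb2*, *Gzma* to *Trpm5*, *Rhoc* to *Gna14* and *Rnf4* to *Itpr3*. One of the 10, *Pkd1l3*, is on the list of type III (sour-sensing) cell markers.

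Markers of other cells also differed between the libraries. Their counts stand against 25.5% of all rows with a ratio above 3 and 2.35% meeting both criteria. Of 8 type III taste cell markers all had a ratio above 3, with a summed RPKM of 114 in the CvP but 0.48 in the Epi, led by *Pkd1l3* (47.6 RPKM in the CvP) and *Otop1* (20.1). Of the 3 type I markers 2 met both criteria, *Entpd2* (54.8 and 4.53 RPKM) and *Kcnj1* (13.5 and 0), while the other, *Slc1a3*, was higher in the Epi (1.04 and 3.82 RPKM, a ratio of 0.272 with the interval 0.221 to 0.333). Of 5 type II markers with a row, none of them a cascade gene of the 8, all had a ratio above 3, with *Tas1r3* and *Tas1r2* highest. The tuft cell list, whose cells share the cascade, had 4 of 5 above a ratio of 3, led by *Avil* (83.5 and 2.18 RPKM). Of these, *Il25* (0.76 and 0) and *Dclk1* (0.34 and 0.01) were low. *Alox5ap* (3.31 and 0.75) had a lower limit of 2.60, so a ratio above 3 is not established for it. *Ptgs1* (8.43 and 20.1) was higher in the Epi.

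All 10 immune markers had a ratio above 3, against 25.5% of all rows. They had sums of 47.4 and 4.83 RPKM, led by *Lcp1* (21.3 and 1.06) and *Laptm5* (6.34 and 1.15). The T and B cell genes *Cd3e* and *Cd79a* were at 0.15 and 0.03 in the CvP but 0 in the Epi. These 2 rest on about 6 CvP reads and 1 CvP read. The lower limits of their ratios were 1.16 and 0.025, so a ratio above 3 is not established for them. The same holds for *Coro1a* (2.39 and 0.65 RPKM), with a lower limit of 2.41. The 5 nerve and glia markers summed to 3.47 and 0.30 RPKM, with *Nefl* (2.32) highest in the CvP. The 6 skeletal muscle markers summed to 4.24 and 45.7, with *Mylpf* (1.63) and *Acta1* (0.86) highest in the CvP. Of the 6 salivary gland markers *Lipf* had 1.96 RPKM in the CvP but 313 in the Epi. *Amy1* (0.85 and 80.5) and *Dcpp1* (0 and 7.84) were also higher in the Epi. *Pigr* (12.0 and 0.54) and *Aqp5* (6.09 and 0.69), the highest 2 in the CvP, went the other way. *Bhlha15* was low in both (0.17 and 0.14). The 7 stratified epithelium keratins and envelope genes summed to 33887 and 87949 RPKM, with *Krt13* and *Krt4* highest, at 17549 and 11801 RPKM in the CvP. *Krt5* was the 1 gene of this list that was higher in the CvP (1506 and 1271 RPKM, a ratio of 1.19). The part of these differences in the ratios of the cascade genes was not tested.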

How the data were processed

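The authors extracted RNA from the CvP and Epi, pooled it by tissue and prepared libraries with the TruSeq RNA kit. Single-end reads of 75 bp were mapped to NCBI37/mm9 with Bowtie 0.12.7, and ERANGE gave the deposited RPKM values per exon model, 1 value per pooled library. The ERANGE options and the treatment of reads matching several places are not given in the sources used here. Of the deposited table, the RPKM columns, the gene length and the position were used (0 columns of other samples were present). The CvP/Epi ratio column holds the authors' comparison and was not used.

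The members and gene lists were chosen with earlier results of these data known. Genes were named by a rule: the 8 members, the receptor, release and factor genes of the pathway, the highest gene of each family, rows adjacent on the chromosome, nearest genes by level, and the 2 highest markers of each cell type list. One gene that the rule names is not reported here. Names outside it were chosen after their values were seen, as were the pathway column, the promoter features and the *Rgs21* regions.

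Reads were estimated as RPKM × length × depth. The listed length was used because in rows where it exceeded 1.5 times the longest coding transcript of GENCODE M1 (up to 1.2 kb, under 8 reads) 19 of 21 values were whole reads, within the rounding of RPKM and 0.02 reads, against 5 of 23 with the transcript length. Where rounding allowed several Epi read numbers, the widest interval was kept. Intervals are 95% exact (Clopper-Pearson for ratios, Poisson for levels). With 0 Epi reads, the bound used a floor of 3 reads per library. In all counts, an Epi RPKM of 0 with a CvP RPKM above 0 passed as a ratio above 3. The counts use the ratio itself, and some counted genes had a lower limit below 3. Reads are not independent molecules, so intervals and floors cover counting error only. A pseudocount of 0.1 on log2 values understates the change of low genes. Depth estimation, read recovery and interval coverage were tested on simulated data. Alternatives were other minimums, pseudocounts, scalings and lengths. Python 3.11.15, numpy 2.4.6, pandas 2.3.3, scipy 1.17.1 and matplotlib 3.10.9 were used.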

Additional observations from a re-analysis of the deposited data

How the results depend on the processing

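The count of cascade genes meeting both criteria was 6 at minimum CvP RPKM of 1 and 5, at a minimum ratio of 10, with a pseudocount of 1 and under both rescalings; it was 5 at a minimum CvP RPKM of 20 or a ratio of 100, and 4 at a minimum of 50. The median log2 ratio of the members was 10.35 with a pseudocount of 0.01, 5.99 with 1, 8.04 after division by the median ratio and 9.80 with both libraries scaled to the same sum. For the pathway list these values were 2.03, 1.59, 1.59 and 2.51. Dividing by the median ratio lowers every log2 value by 0.39, and scaling to the same sum raises every ratio 1.21-fold and, since values become larger, lowers the weight of the pseudocount.

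With a pseudocount of 0.1 the ratio was 979 for *Gnat3*, 613 for *Gnb3*, 319 for *Plcb2* and 345 for *Trpm5*. With 1 it was 124 for *Gnat3*, 14.4 for *Gna14*, 98.2 for *Gnb3*, 78.4 for *Gng13*, 63.4 for *Plcb2* and 38.4 for *Trpm5*. Division by the median ratio gave a bound of 496 for *Gng13* and a ratio of 1.05 for *Itpr3*, which was 1.66 with equal sums. With the annotated transcript length, added after seeing the data, the lower limits of the intervals were 633 for *Gnat3*, 42.3 for *Gna14*, 523 for *Gnb3*, 278 for *Gng13*, 353 for *Plcb2*, 1.33 for *Itpr3* and 602 for *Trpm5*.

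As a share of estimated reads in place of RPKM, the CvP values were 32.2% for *Gnat3*, 1.85% for *Gna14*, 23.5% for *Gnb3*, 16.6% for *Gng13*, 70.1% for *Plcb2*, 78.2% for *Itpr3* and 47.4% for *Trpm5*, and the Epi values were 0.054% for *Gna14* and 77.5% for *Itpr3*. No direction was reversed. No paired analysis was possible because the CvP and the Epi were sequenced as 1 pool each. Depth limits the Epi levels of *Gng13* and *Trpm5*, which rest on 0 and 1 or 2 reads.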
